A study of Mus musculus with 8 samples.

Results

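The levels of 10 mouse genes were followed across liver cell fractions: the vascular endothelial growth factor (VEGF) receptors Kdr, Flt1 and Flt4, the Tie receptors Tek and Tie1 with the phosphatase Ptprb, the neuropilins Nrp1 and Nrp2, and the endothelial junction genes Pecam1 and Cdh5. They were taken by symbol from the gene column of the deposited tables, by a rule that uses no measured value. The 10 genes and the lists of other genes used below were, however, chosen with earlier results of these data known. Counts of called genes are therefore not independent of the data. All 10 of 10 symbols were found among 21968 named genes, and all 10 were among the 14404 genes with enough reads to be tested.

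RNA was sequenced in bulk from 4 sorted groups of liver cells, with 2 libraries per group and the cells of 2 mice pooled in each library. Every mouse carried the Lgr5-LacZ transgene, which places β-galactosidase under Lgr5 control, on a mixed C57BL/6 and CBA background. Every mouse had also received a single intraperitoneal dose of carbon tetrachloride (CCl4, a liver toxin, 1 µl per g body weight in rapeseed oil) 6 days before the liver was taken, so no group is uninjured. Age is stated as 10 to 12 weeks with the samples but as 7 to 12 weeks in the series text. Dissociated cells were stained with a fluorogenic β-galactosidase substrate and with antibodies to F4/80, a macrophage surface receptor, or to EpCAM, an epithelial adhesion molecule. The 4 groups are the b-gal- F4/80high cells, the b-gal+ F4/80high cells, the EpCAM-positive cells and the hepatocytes, the last pelleted at low speed; they are called b-gal-, b-gal+, EpCAM-positive and hepatocyte libraries here. The series text calls the EpCAM-positive cells cholangiocytes. No label says whether the 2 libraries of a group came from separate preparations, so p-values measure only the spread between these libraries, which may be technical.

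Kdr, Flt1 and Flt4 are receptor tyrosine kinases for VEGF ligands, and the neuropilins are co-receptors that bind both VEGF and class 3 semaphorins. Tek binds the angiopoietins, Tie1 is its partner receptor without a well-defined ligand of its own, and Ptprb is an endothelial phosphatase that removes phosphate from Tek. Cdh5 (VE-cadherin) and Pecam1 (CD31) are adhesion molecules at contacts between endothelial cells. In the liver these genes are known from the sinusoidal endothelium, the fenestrated lining of the blood spaces between hepatocyte plates, where Flt4 is expressed outside lymphatic vessels as well. Kupffer cells, the resident macrophages, lie within the same sinusoids.

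Depth was even, at 16948568 to 24549242 reads per library over 14432 to 16130 detected genes. Levels are given in CPM (read counts scaled to a common library total) after TMM scaling, which aligns the bulk of genes between libraries, and 3 reads corresponded to 0.122 to 0.177 CPM before it. A gene was called where limma gave a Benjamini-Hochberg adjusted p under 0.05 over all 14404 genes. Epcam itself stood at 88.53 and 213.7 CPM in the EpCAM-positive libraries and at no more than 1.468 CPM in the other 6. Adgre1, which encodes F4/80, stood at 1731 and 1361 CPM in the b-gal+ libraries but at 310.9 and 133.9 CPM in the b-gal- libraries, although both were sorted as F4/80high (adjusted p = 0.073). The 16 measured sinusoidal endothelial markers summed to 29633 and 35424 CPM in the b-gal- libraries, and the 12 macrophage markers there summed to 6257 and 2867 CPM. In the b-gal+ libraries the order was the opposite, with 6912 and 5939 CPM for the endothelial and 25814 and 27309 CPM for the macrophage list. Mrc1, an endothelial list gene that macrophages also express, held 1948 and 1749 CPM of the endothelial sums there. Summed over these lists, the b-gal- libraries held more endothelial than macrophage marker reads, which goes against a macrophage reading of the F4/80high label, so the group is called by its sort only. Replicate 1 of each sort stood apart in the summed level of 11 monocyte markers. The sums for replicates 1 and 2 were 9737 and 1296 CPM (b-gal-), 3821 and 636.6 CPM (b-gal+) and 5514 and 1271 CPM (EpCAM-positive). Most of each sum of replicate 1 was Fn1, at 8115, 3017 and 4255 CPM. Fn1 also read 6085 and 5845 CPM in the hepatocyte libraries, whose sums were 6107 and 5857 CPM. Itgam differed between replicates 1 and 2 as well, for b-gal- at 724.6 and 106.6 CPM. With either b-gal- or either b-gal+ library left out, 9 of the 10 genes were called higher in b-gal- than in b-gal+ cells, as with all 8. In bulk RNA, fewer cells of a type and less RNA per cell cannot be told apart.

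**Figure D1:**
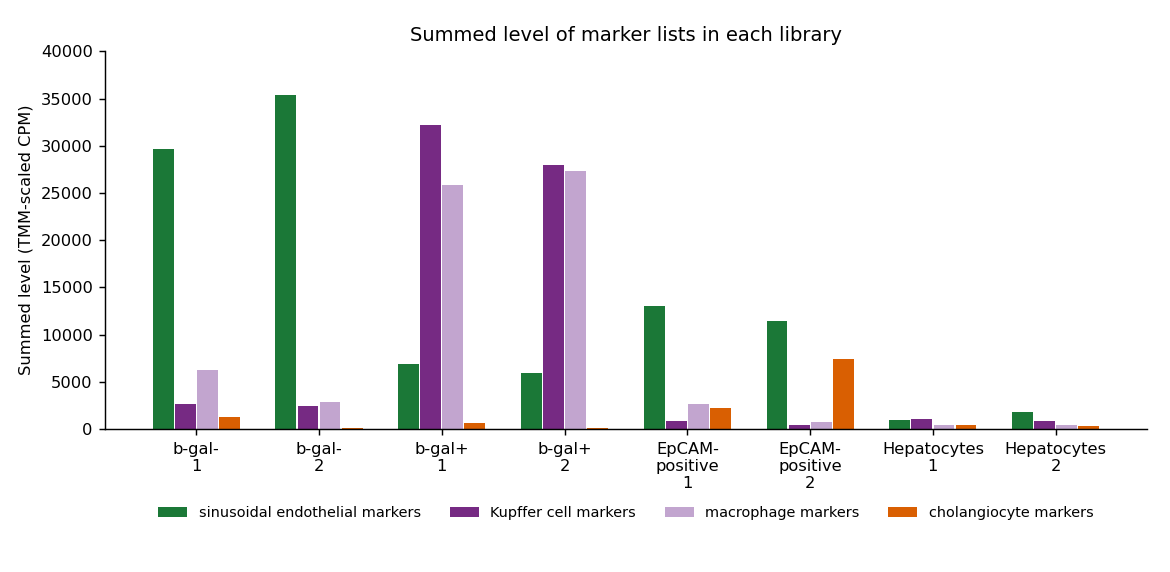
Summed level (TMM-scaled CPM, linear axis) of 4 marker lists in each of the 8 libraries, 1 bar per list and library. Sinusoidal endothelial markers led in the b-gal- libraries (29633 and 35424 CPM) and Kupffer cell and macrophage markers in the b-gal+ libraries. The endothelial list also led in the EpCAM-positive libraries (12987 and 11417 CPM, against 2235 and 7433 CPM for cholangiocyte markers). Spp1 alone made up 1837 and 5686 CPM of these cholangiocyte sums.

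For 7 of the 10 genes the RefSeq promoter table (GRCm38.p6) holds the start region; Ptprb, Pecam1 and Cdh5 had no entry. The 250 bases before the start are shown for a VEGF receptor pair and for Tek, which moved together across the libraries, with each match to GGAA (the core that ETS-family factors bind, read on both strands, so also TTCC) in capitals. ETS-family factors such as Ets1 and Erg are known regulators of endothelial genes.
Kdr (chr5:75978456-75978705, minus strand): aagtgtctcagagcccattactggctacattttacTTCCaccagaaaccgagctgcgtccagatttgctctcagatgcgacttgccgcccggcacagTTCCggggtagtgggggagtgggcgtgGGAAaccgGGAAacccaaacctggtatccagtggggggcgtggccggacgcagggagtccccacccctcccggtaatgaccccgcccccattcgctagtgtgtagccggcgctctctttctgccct
Flt1 (chr5:147726012-147726261, minus strand): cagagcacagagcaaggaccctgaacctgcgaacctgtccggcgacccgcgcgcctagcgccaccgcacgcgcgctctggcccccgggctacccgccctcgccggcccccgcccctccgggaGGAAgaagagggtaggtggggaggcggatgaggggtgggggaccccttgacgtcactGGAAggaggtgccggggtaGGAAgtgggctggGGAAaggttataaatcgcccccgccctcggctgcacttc
Tek (chr4:94739039-94739288, plus strand): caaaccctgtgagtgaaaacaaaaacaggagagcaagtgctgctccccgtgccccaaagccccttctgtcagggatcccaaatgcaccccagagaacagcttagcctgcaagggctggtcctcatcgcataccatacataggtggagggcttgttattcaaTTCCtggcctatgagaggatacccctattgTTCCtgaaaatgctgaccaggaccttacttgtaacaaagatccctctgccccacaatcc
Kdr and Flt1 each hold 4 matches and Tek 2. Of all 32851 promoter windows of this length, 93.4% hold at least 1 match, with a median of 3. A longer form, GAGGAAG, which itself contains GGAA, occurs once in the Flt1, Tie1 and Nrp1 windows and in 10.6% of all windows. The form CAGGAAG (10.8% of all windows) was found in 0 of the 7 windows.

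Kdr (chromosome 5, 75932827 to 75978458, minus strand, GRCm38), the main signalling receptor for VEGF-A, was high in the b-gal- libraries at 3079 and 3421 CPM. It stood at 364.5 and 238.3 CPM in the b-gal+ libraries, at 1272 and 1036 CPM in the EpCAM-positive libraries and at 57.74 and 160.4 CPM in the hepatocyte libraries. The order of the 4 groups from highest to lowest was b-gal-, EpCAM-positive, b-gal+ and hepatocytes. Kdr was 10.8-fold higher in b-gal- than in b-gal+ cells by the ratio of means, with 8.45 to 14.4 over the 4 library pairs (log2 difference 3.46 ± 0.48 SE, adjusted p = 0.00343).

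Flt1 (chromosome 5, 147561604 to 147726011, minus strand), which binds VEGF-A, VEGF-B and PlGF and limits their access to Kdr, followed the same order at a lower level. Its values were 451 and 571.3 CPM for b-gal-, 52.46 and 41.27 CPM for b-gal+, 199.9 and 162 CPM in EpCAM-positive and 10.56 and 27.3 CPM in hepatocyte libraries. Flt4 (chromosome 11, 49609263 to 49652739, plus strand), the receptor for VEGF-C and VEGF-D, read 1770 and 1644 CPM, 218.7 and 114.8 CPM, 733.2 and 493.3 CPM, and 27.39 and 67.37 CPM in the same groups. For both genes the b-gal- libraries were highest. Flt1 was 10.9-fold (adjusted p = 0.00206) and Flt4 10.2-fold (adjusted p = 0.00352) higher in b-gal- than in b-gal+ cells.

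Tek (chromosome 4, 94739289 to 94874976, plus strand), the angiopoietin receptor, was measured at 697.9 and 873.2 CPM for b-gal-, 81.85 and 59.93 CPM for b-gal+, 295.7 and 294.4 CPM in EpCAM-positive and 16.02 and 43.18 CPM in hepatocyte libraries. Tie1 (chromosome 4, 118471191 to 118490061, minus strand) was measured at 778.6 and 960.9 CPM, 101.2 and 74.81 CPM, 344.7 and 348.9 CPM, and 19.2 and 39.99 CPM. Both again ran from b-gal- through EpCAM-positive and b-gal+ down to hepatocytes. The b-gal- level was 11.1-fold that of b-gal+ cells for Tek (adjusted p = 0.00224) and 9.88-fold for Tie1 (adjusted p = 0.00137).

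Ptprb (chromosome 10, 116275523 to 116389535, plus strand) had the highest CPM of the 10 genes in the b-gal- libraries, 4265 and 5442. It reached 474.1 and 387.7 CPM for b-gal+, 1729 and 1497 CPM in EpCAM-positive and 89.71 and 267.2 CPM in hepatocyte libraries. Its ratio between the F4/80high gates, 11.3 (9 to 14 over library pairs, adjusted p = 0.00395), was the highest of the 10. These 6 genes, the 3 VEGF receptors, both Tie receptors and Ptprb, thus shared ratios of 9.88 to 11.3 between the b-gal- and b-gal+ libraries.

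**Figure D2:**
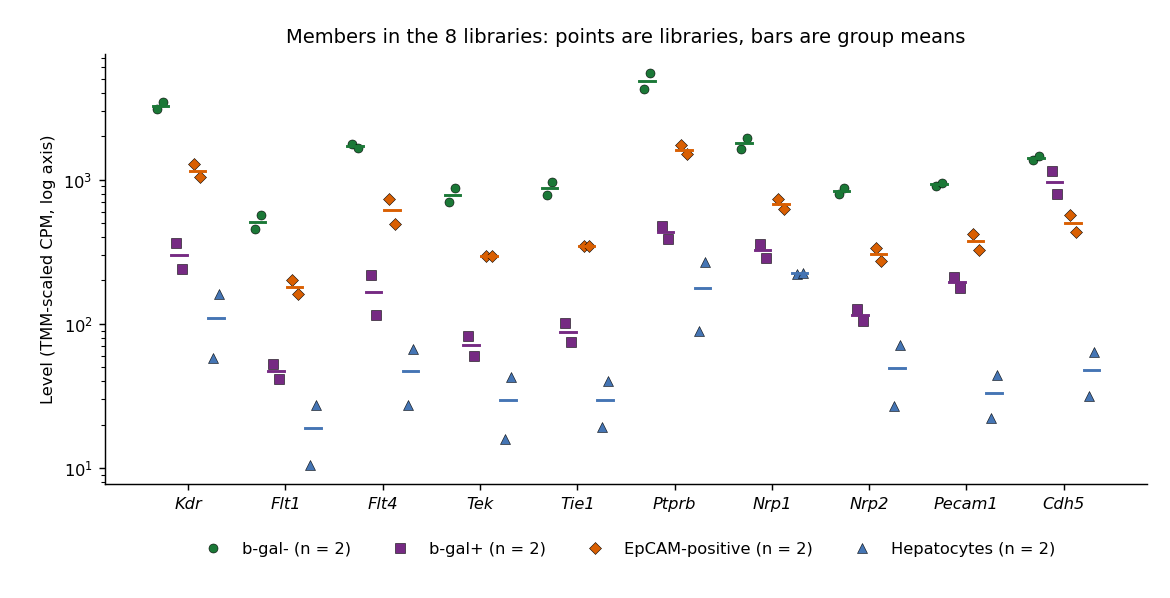
Level of each gene (TMM-scaled CPM, log axis) in the 8 libraries; points are libraries, horizontal bars the mean of the 2 libraries of a group. The b-gal+ libraries sit below the EpCAM-positive ones for every gene but Cdh5, and the hepatocyte libraries lie apart from each other for every gene but Nrp1.

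Nrp1 (chromosome 8, 128358604 to 128503363, plus strand), co-receptor of Kdr and receptor for semaphorin 3A, stood at 1631 and 1940 CPM in the b-gal- libraries and at 357.8 and 287.4 CPM in the b-gal+ libraries. It read 738.6 and 621.3 CPM in the EpCAM-positive and 221.5 and 225.5 CPM in the hepatocyte libraries. The b-gal- mean was 5.53 times the b-gal+ mean (4.56 to 6.75 over library pairs, adjusted p = 0.00108). Nrp2 (chromosome 1, 62703285 to 62818695, plus strand), which pairs with Flt4 and binds semaphorin 3F, stood at 796.6 and 877 CPM, 125.9 and 104.9 CPM, 336.3 and 273.9 CPM, and 26.8 and 71.92 CPM in the groups as listed. Its ratio of 7.25 (6.33 to 8.36, adjusted p = 0.00412) lay between that of Nrp1 and those of the receptors.

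Pecam1 (chromosome 11, 106654217 to 106750628, minus strand), also present on platelets and leukocytes, was found at 900.3 and 951.9 CPM for b-gal-, 212 and 176.5 CPM for b-gal+, 420 and 327.6 CPM in EpCAM-positive and 22.15 and 44.06 CPM in hepatocyte libraries. The b-gal- level was 4.77-fold the b-gal+ level (4.25 to 5.39, adjusted p = 0.00366). Cdh5 (chromosome 8, 104101625 to 104144511, plus strand) was the exception: its 1372 and 1468 CPM in the b-gal- libraries were followed by 1142 and 793.5 CPM in the b-gal+ libraries. The EpCAM-positive libraries held 568.7 and 431.2 CPM and the hepatocyte libraries 31.67 and 64.26 CPM. The b-gal- libraries were still both above the b-gal+ libraries, by 1.47-fold (1.2 to 1.85), and the difference was not called (log2 difference 0.58, 95% interval -0.30 to 1.45, adjusted p = 0.324).

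In all, 9 of the 10 genes were called higher in b-gal- than in b-gal+ cells, against 13.0% of all genes tested. Their median log2 difference was 3.36, and 0.02 over all genes. Among the 14404 genes ordered from the highest log2 difference down, Ptprb ranked 6, Tek 7, Kdr 9, Flt1 16, Flt4 20 and Tie1 73. The other genes stood further down, with Nrp2 at 385, Nrp1 at 602, Pecam1 at 723 and Cdh5 at 3291. Sinusoidal endothelial marker sums went from 29633 and 35424 CPM to 6912 and 5939 CPM between these gates, and Kupffer cell marker sums went from 2645 and 2410 CPM to 32240 and 27989 CPM. The part of these changes in the gene differences was not tested.

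**Figure D3:**
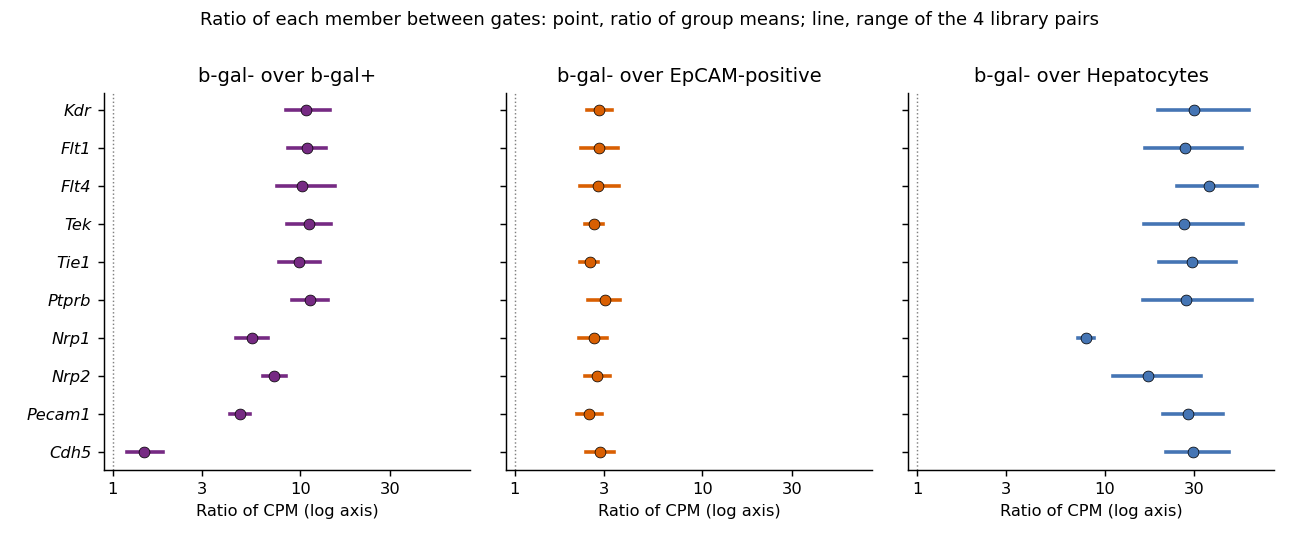
Ratio of CPM (log axis) of each gene in b-gal- libraries over the other 3 groups; points are ratios of group means and lines the range of the 4 library pairs. Against b-gal+ the ratios spread from 1.47 (Cdh5) to 11.3 (Ptprb), against EpCAM-positive they lie between 2.48 and 3.01, and against hepatocytes Nrp1 stands alone at 7.99.

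The spread of these ratios was tested by taking each gene relative to another gene of the set within the same library, which removes the scaling between libraries. Relative to Cdh5, all 9 other genes were called higher in b-gal- than in b-gal+ cells, against 4.89% of all genes. The ratio to Cdh5 was 7.38-fold higher for Kdr (95% interval 3.59 to 15.2, adjusted p = 3.94e-06), 3.72-fold for Nrp1 (adjusted p = 0.00406) and 3.21-fold for Pecam1 (adjusted p = 0.0104). All genes share the spread of the reference gene in this fit. Moderation therefore pooled the spread over genes, and its p-values rest on far more than the 4 residual degrees of freedom. The SE of the 9 log2 differences was 0.51 to 0.54 with moderation and 0.0946 to 0.36 without. Without moderation, a choice made after seeing the data, 8 of 9 were called (0.847% of all genes), Kdr at adjusted p = 0.0211. The exception was Nrp1 with adjusted p = 0.139.

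Relative to Kdr, Cdh5 was the only one of the 9 others called in the moderated fit, its ratio being lower in b-gal- than in b-gal+ cells (log2 difference -2.88, adjusted p = 2.61e-05), a direction called for 93.4% of all genes. Pecam1 (-1.20, adjusted p = 0.0755), Nrp1 (-0.99, adjusted p = 0.146) and Nrp2 (-0.60, adjusted p = 0.378) were also lower in b-gal- cells but not called. Without moderation Cdh5 (0.0126), Pecam1 (0.0126) and Nrp2 (0.0142) were called at these adjusted p-values, against 88.0% of all genes, and leaving out hepatocyte replicate 1 or 2 in the moderated fit added Pecam1 and Nrp1. The log2 differences of Flt1, Flt4, Tek, Tie1 and Ptprb from Kdr lay between -0.15 and 0.03. The widest of their 95% intervals without moderation was that of Tie1, from -0.72 to 0.42. In the moderated fit the Tie1 interval was wider, from -1.46 to 1.16.

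The library values of these ratios show the same split. Reads of Cdh5 were 0.445 and 0.429 times those of Kdr in the b-gal- libraries, 0.447 and 0.416 times in the EpCAM-positive and 0.549 and 0.4 times in the hepatocyte libraries, but 3.13 and 3.33 times in the b-gal+ libraries. Pecam1 was at 0.581 and 0.741 times Kdr in the b-gal+ libraries and between 0.275 and 0.384 times in the other 6. Nrp1 was at 0.982 and 1.21 times Kdr in the b-gal+ and 3.84 and 1.41 times in the hepatocyte libraries, against 0.53 to 0.6 times elsewhere. Nrp2 was at 0.345 and 0.44 times in the b-gal+ and 0.464 and 0.448 times in the hepatocyte libraries, against 0.256 to 0.264 times elsewhere. Flt1, Flt4, Tek, Tie1 and Ptprb kept within a highest to lowest ratio of 1.27 to 1.43 over all 8 libraries, while Kdr itself ranged from 57.74 to 3421 CPM.

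**Figure D4:**
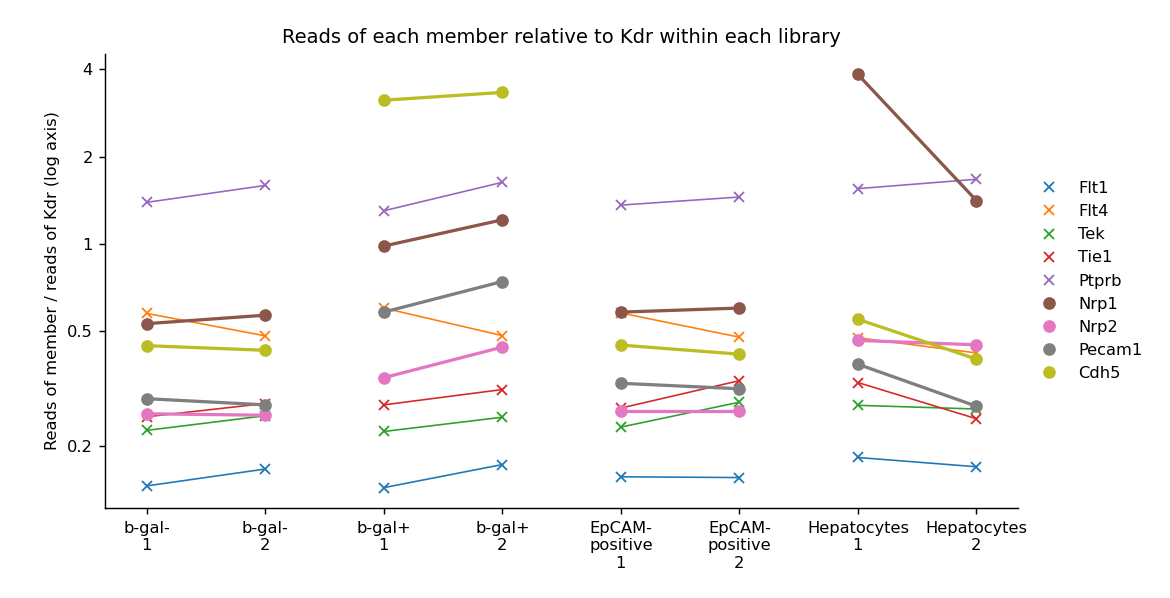
Reads of each gene divided by reads of Kdr in the same library (log axis), not corrected for gene length; lines join the 2 libraries of a group. Cdh5 leaves its level in both b-gal+ libraries (3.13 and 3.33). Nrp1 does so in both hepatocyte libraries (3.84 and 1.41) and less in both b-gal+ libraries (0.982 and 1.21). Flt1, Flt4, Tek, Tie1 and Ptprb stay near theirs.

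Levels of different genes were compared per kilobase of exon (CPM per kb, over the union of GENCODE M21 exons). In b-gal- cells Ptprb (364 ± 62.4, SD, n = 2), Kdr (360 ± 26.8) and Cdh5 (338 ± 16.1) led and did not differ beyond their spread. Flt4 (207 ± 10.9) came next, its libraries above both Nrp1 libraries although their mean ± SD ranges overlapped. Nrp1 (182 ± 22.3), Tie1 (177 ± 26.2) and Tek (167 ± 26.3) were neighbours within their spread. Pecam1 (149 ± 5.86) followed, its libraries below both libraries of Nrp1 and of Tie1 but overlapping those of Tek. Nrp2 (70.7 ± 4.80) and Flt1 (37.9 ± 6.30), whose exon union is the longest of the 10, were lowest. In b-gal+ cells Cdh5 stood first at 230 ± 58.7, and Kdr (33.4 ± 9.88), Nrp1 (33.0 ± 5.09), Ptprb (32.3 ± 4.58) and Pecam1 (31.2 ± 4.03) followed together. Cdh5 made up 54.6% and 53.1% of the summed level per kb of the 10 genes in the b-gal+ libraries, and 12.5% to 17.0% in the other 6.

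In the EpCAM-positive libraries all 10 genes were lower than in the b-gal- libraries, by similar ratios. The b-gal- mean was 2.48-fold (Pecam1) to 3.01-fold (Ptprb) the EpCAM-positive mean. Only Nrp1 (adjusted p = 0.0189), Pecam1 (0.044) and Cdh5 (0.044) were called, 3 of 10 against 5.63% of all genes, and the adjusted p of the other 7 ran from 0.0513 (Tie1) to 0.0884 (Kdr). Relative to Kdr, 0 of the 9 others had a called lower ratio in b-gal- cells (limma; 22.3% of all genes did), 0 were at an unadjusted p under 0.05, and 0 were called without moderation; the smallest unadjusted p was that of Tie1, 0.785 with moderation and 0.424 without. The ratio of Pecam1 to Kdr was 0.33 and 0.316 in the EpCAM-positive libraries, above the 0.292 and 0.278 of the b-gal- libraries. With moderation the 95% interval of the log2 difference from Kdr was -1.42 to 1.20 for Nrp1 and -1.29 to 1.32 for Cdh5. Without moderation it was widest for Nrp1, -1.56 to 1.34, and reached from -0.45 to 0.49 for Cdh5. Differences in proportion within these intervals were not detectable with 2 libraries a group. Sinusoidal endothelial marker sums in these libraries were 12987 and 11417 CPM and cholangiocyte marker sums 2235 and 7433 CPM. Most of each cholangiocyte sum was Spp1, at 1837 and 5686 CPM. Spp1 was not confined to this sort: it reached 1263 CPM for b-gal- replicate 1 (replicate 2, 78.57 CPM). For b-gal+ its replicates read 655.1 and 53.46 CPM. Of the 12 cholangiocyte markers 10 were called lower for b-gal- than for EpCAM-positive cells, Spp1 not among them (limma adjusted p = 0.268). The endothelial sum stood below that of the b-gal- and above that of the b-gal+ libraries, as did every gene of the set but Cdh5. The part of this in the gene levels was not tested. The count of 3 dropped to 0 without either b-gal- library and to 1 without EpCAM-positive replicate 2 or either b-gal+ library, and it was 10 with DESeq2.

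Between b-gal+ and EpCAM-positive cells, 8 of 10 genes were called lower in b-gal+ cells, against 17.9% of all genes. The 6 receptors and phosphatase stood at 0.24 (Tek) to 0.272 of the EpCAM-positive level. Nrp2 (log2 difference -1.40, adjusted p = 0.0423) and Nrp1 (-1.08, adjusted p = 0.0126) were closer. Pecam1 (-0.94, adjusted p = 0.0642) was not called, and Cdh5 went the other way, 1.94-fold higher in b-gal+ cells by the ratio of means (0.94, adjusted p = 0.0951, not called). No call was left without b-gal+ replicate 2, and 4 or 5 were left without b-gal+ replicate 1 or an EpCAM-positive replicate.

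Hepatocyte libraries had the lowest level of all 10 genes. All 10 were called higher in b-gal- cells (33.5% of all genes were) and all 10 in EpCAM-positive cells (33.5% as well). The ratio of b-gal- to hepatocyte means was 7.99 for Nrp1 (7.23 to 8.76 over library pairs), 17 for Nrp2 (11.1 to 32.7) and 26.5 to 36 for the other 8. The other 9 genes differed 1.99-fold to 2.98-fold between the hepatocyte replicates, replicate 2 being the higher, and Nrp1 1.02-fold. The sinusoidal endothelial marker sum moved alike, from 968 to 1825 CPM, and its part was not tested. Relative to Kdr, Nrp1 was the only gene called in the moderated fit, its ratio being lower in b-gal- than in hepatocyte libraries (log2 difference -2.08, adjusted p = 0.00216; 92.4% of all genes were called in that direction). The difference was -1.36 without hepatocyte replicate 1 and -2.80 without hepatocyte replicate 2, and both were called. Nrp2 (-0.83, adjusted p = 0.222) was called only without moderation (adjusted p = 0.00422, with Nrp1 at 0.0192), where 90.2% of all genes were called. Per kb, Nrp1 was the highest of the 10 genes in hepatocytes (22.8 ± 0.289), ahead of Ptprb (13.4 ± 9.42) and Kdr (12.1 ± 8.04).

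Against hepatocytes, 9 of the 10 genes were called higher in b-gal+ cells, and 29.5% of all genes were. Cdh5 was 20.2-fold higher by the ratio of means (log2 difference 4.38, adjusted p = 7.7e-05), while the 6 receptors and phosphatase were 2.39-fold to 3.52-fold higher. Pecam1 lay between (2.61, adjusted p = 0.000431), and Nrp1 was not called (0.52, 95% interval -0.02 to 1.06, adjusted p = 0.088). Without b-gal+ replicate 1 or hepatocyte replicate 1 the calls dropped to 3, and without b-gal+ replicate 2 to 5.

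The other genes of these pathways were read from fixed lists between the b-gal- and b-gal+ libraries, where 13.0% of all genes were called higher and 10.4% lower in b-gal- cells. Of 12 tested VEGF, angiopoietin and semaphorin ligands, 4 were called higher, with a median log2 difference of 1.20. The called ones were Sema3f, a ligand of Nrp2 (266 ± 54.8 against 28.2 ± 6.76 CPM, SD, n = 2 each, adjusted p = 0.00176), Sema3d (46.3 ± 17.5 against 5.39 ± 1.87), Angpt2, the angiopoietin that modulates Tek (32.6 ± 4.21 against 5.52 ± 0.294), and Vegfc, a Flt4 ligand (9.24 ± 2.69 against 2.31 ± 1.85). Vegfa, the Kdr ligand, read 38.7 ± 19.6 and 15.6 ± 6.59 CPM (adjusted p = 0.253) and stood at 223.5 and 329.5 CPM in the hepatocyte libraries (log2 difference of b-gal- from hepatocytes -2.89, adjusted p = 0.00884). Its EpCAM-positive values, 65.55 and 266.1 CPM, overlapped those of hepatocytes (adjusted p = 0.227). Vegfb stood at 25.2 ± 1.91 and 17.9 ± 2.96 CPM (adjusted p = 0.144).

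Of 15 plexins and other co-receptors, 7 were higher and 3 lower in b-gal- cells, with a median of 0.84. Higher ones included Eng, an auxiliary receptor for BMP ligands (2942 ± 465 against 326 ± 78.3 CPM, adjusted p = 0.00203), and Plxnd1, an endothelial semaphorin receptor (1860 ± 195 against 672 ± 153 CPM, adjusted p = 0.0191). Lower in b-gal- cells were Plxnb2 (348 ± 103 against 907 ± 237 CPM, adjusted p = 0.0152), Plxna1 (72.1 ± 8.34 against 178 ± 6.16 CPM) and the integrin chain Itgav (83.6 ± 24.9 against 264 ± 10.1 CPM). Of 22 signalling adaptors and regulators, 12 were higher and 2 lower, with a median of 1.68. Robo4 (658 ± 112 against 64.1 ± 15.3 CPM) and the transcription factors Ets1 (1186 ± 139 against 160 ± 36.4 CPM) and Erg (196 ± 36.7 against 32.4 ± 2.07 CPM) were higher, and the tyrosine phosphatase Ptpn6 (123 ± 62.4 against 470 ± 26.9 CPM) and the kinase Src (5.72 ± 0.759 against 25.6 ± 6.02 CPM) lower. Dab2, an endocytic adaptor, was higher by only 0.75 on the log2 scale (adjusted p = 0.0438).

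Among 24 adherens and tight junction genes other than Cdh5 and Pecam1, 11 were called higher in b-gal- cells, with a median of 1.34. Jam2 (659 ± 14.4 against 63.3 ± 25.2 CPM), Esam (481 ± 81.1 against 50.1 ± 10.3 CPM), Tjp1 (456 ± 14.0 against 47.6 ± 17.8 CPM) and Cldn5 (348 ± 90.0 against 37.8 ± 3.82 CPM), all known from endothelial junctions, were among them. The catenins Ctnnb1, Ctnnd1 and Ctnna1 of the cadherin complex were not called (limma adjusted p = 0.188, 0.496 and 0.36). Ctnnb1 read 691 ± 47.1 and 478 ± 61.3 CPM, Ctnnd1 464 ± 13.8 and 559 ± 16.0 CPM, and Ctnna1 482 ± 5.41 and 399 ± 48.3 CPM. Of 16 other endothelial surface adhesion genes, 9 were higher, Clec14a (839 ± 5.30 against 83.6 ± 27.9 CPM) and Podxl (596 ± 97.7 against 54.6 ± 10.8 CPM) among them, and 1 was lower. The lower one was Vcam1, an adhesion receptor for leukocyte integrins, at 157 ± 35.2 against 1263 ± 310 CPM (log2 difference -3.00, adjusted p = 0.00119). The called ligands, plexins, adaptors and junction genes outside the 4 most abundant of each list were named after their values were seen.

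Genes with the most similar pattern were sought over the 9761 tested genes that averaged 10 CPM or more, by the Euclidean distance between log2 values over the 8 libraries, each centred on its own mean. Nearest to Kdr were Plxnc1 (distance 0.25), Fat4 (0.28), the water channel Aqp1 (0.31), Ptprb (0.35) and Hspg2 (0.35), the core protein of perlecan. Nearest to Cdh5 was the mannose receptor Mrc1 (0.36), at 2635 ± 239 CPM in b-gal- cells against 1848 ± 140 CPM in b-gal+ cells, then Man1c1 (0.62), Dysf (0.66), Dab2 (0.67) and Soga1 (0.67). Nrp1 was nearest to Inpp5a (0.42), Snrk (0.46), Zeb1 (0.50), Dlc1 (0.56) and Peak1 (0.59). Nrp2 was nearest to Filip1 (0.43), Ccdc8 (0.54), Chst15 (0.54), Ldb2 (0.55) and the endothelial transcription factor Sox18 (0.60). Within the set Flt1 and Ptprb were closest at 0.21, whereas Cdh5 was at least 2.19 from every other gene, Pecam1 being its nearest.

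Markers of other cells that express some of these genes were read beside them. Over all genes, 13.0% were called higher and 10.4% lower in b-gal- than in b-gal+ cells. Of 16 sinusoidal endothelial markers 14 were called higher in b-gal- than in b-gal+ cells, with a median log2 difference of 3.13, and 11 of 16 continuous vessel markers were higher. Stab2, a scavenger receptor of sinusoidal endothelium, stood at 3948 ± 337 and 810 ± 129 CPM, a log2 difference of 2.29 (adjusted p = 0.0156), while Mrc1, which macrophages also express, was not called (0.51, adjusted p = 0.448). All 12 Kupffer cell markers and 10 of 12 macrophage markers were lower in b-gal- cells. Megakaryocytes and platelets also carry Pecam1, and their markers summed to 164 to 179 CPM in the b-gal- against 359 to 383 CPM in the b-gal+ libraries, of which Clec1b, also expressed by Kupffer and sinusoidal endothelial cells, made up 324 and 350 CPM in the b-gal+ libraries. Monocytes can also carry Pecam1, and 2 of their 11 markers were called higher in b-gal- than in b-gal+ cells, against 13.0% of all genes. The most abundant markers, which follow, were not among the called ones. Fibronectin (Fn1) reached 8115 and 972.4 CPM in b-gal- replicates 1 and 2, with 3017 and 328.6 CPM for b-gal+. In the same order Itgam stood at 724.6 and 106.6 CPM against 393.5 and 139 CPM, and Chil3 at 188.6 and 7.925 CPM against 95.22 and 7.24 CPM. Fn1, Itgam and Chil3 had limma adjusted p = 0.506, 0.92 and 0.89 between these gates. Pecam1 itself read 900.3 and 951.9 CPM in b-gal- replicates 1 and 2. It read 212 and 176.5 CPM for b-gal+ and 420 and 327.6 CPM for EpCAM-positive cells. A monocyte part in its level was not tested. Among 7 tested lymphatic markers 1 was called higher in b-gal- than in b-gal+ cells. It was Fxyd6, at 19.2 ± 3.67 against 3.46 ± 2 CPM (limma adjusted p = 0.00737). Reln stood at 225.1 and 164.1 CPM in the b-gal- against 179.4 and 21.6 CPM in the b-gal+ libraries and was not called. Prox1 was at 1.81 and 1.57 CPM in the b-gal- against 1.25 and 1.25 CPM in the b-gal+ libraries, and Ccl21a was at 0 reads in all 8. Hepatocyte marker sums were 198 and 434 CPM in the b-gal- against 328 and 748 CPM in the b-gal+ libraries.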

How the data were processed

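RNA of 8 libraries was analysed, 2 per sorted group. The authors counted reads per gene with HTSeq on GRCm38.p4 (mm10), per the submitters' processing notes; aligner, annotation, strand setting and versions are not given in the sources used here. Raw counts make up the deposited file of hepatocyte replicate 1. The deposited values of the other 7 libraries are another unit: read counts that the authors multiplied by 1 factor per library. Division by that factor gave whole reads for 100% of values within 0.01 reads. Of 21982 rows, 14 with a date in place of a symbol were left out (0.0514% to 0.182% of reads).

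Genes were kept with edgeR (4.0.16) filterByExpr and scaled by TMM (factors 0.527 to 1.48). The 4 groups were compared in 1 fit of all 8 libraries with limma (3.58.1, trend, two-sided, R 4.3.3) on log2(CPM + 0.5), with 4 residual degrees of freedom and Benjamini-Hochberg adjustment over all 14404 genes. In the ratio fits, the log2 value of Cdh5 (or, as alternatives, Kdr or Tie1) in the same library was subtracted first. The scripts were tested on simulated data. Gene positions and exon lengths came from GENCODE M21 by symbol, matching 10 of 10. Nrp1 shares 80 exon bases with Mir1903, and genes of similar sequence can share reads. No molecular identifiers are described, so reads need not be independent molecules and the 3-read limit covers counting error only.

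The text names all 10 genes, up to 4 of the most abundant tested genes of each of 18 lists, and the 5 genes nearest in pattern to Kdr, Cdh5, Nrp1 and Nrp2; Adgre1 was added as the gene of the F4/80 sort, Ccl21a for its lack of reads, and Angpt2, Vegfc, Plxna1, Itgav, Erg, Ptpn6, Src, Jam2, Esam, Tjp1 and Cldn5 after their values were seen. The 10 genes and the lists were chosen with earlier results of these data known. Alternatives were other scalings, pseudocounts of 0.1 and 2, no filter, edgeR and DESeq2 (1.42.0) on reads, each comparison on its own 4 libraries, a replicate block and each library left out in turn; the fit without moderation and the use of Kdr in 3 comparisons were added after seeing the data.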

Additional observations from a re-analysis of the deposited data

How the results depend on the processing

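Over 18 alternative settings, the 10 genes and 6 comparisons gave 1080 values, of which 974 kept their direction and side of the threshold, 84 lost the call, 22 gained one and 0 changed sign. All 180 values each of b-gal- against b-gal+, b-gal- against hepatocytes and EpCAM-positive against hepatocytes were among those kept. For b-gal- against EpCAM-positive cells the count of 3 called genes was 1 with DESeq2 size factors, 1 with the deposited scaling, 1 with library size alone, 1 with no low-count filter, 1 with edgeR, 10 with DESeq2 and 0 with only the 2 groups compared, and 0 to 4 when each library was left out. For b-gal+ against EpCAM-positive cells the count of 8 was 5 with only the 2 groups compared and 0 to 9 when each library was left out. For b-gal+ against hepatocytes the count of 9 was 5 with edgeR, 4 with only the 2 groups compared and 3 to 9 when each library was left out. Relative to Cdh5, 9 genes were called higher in b-gal- than in b-gal+ cells, a direction called for 4.89% of all genes. With Kdr as the reference 1 gene was called, lower, as were 93.4% of all genes. With Tie1 it was 2 genes, and the share over all genes was not computed. Each reference asks a different question, so these counts are not repeats of 1 result. When each library was left out, the median log2 difference from Cdh5 was 2.74 to 2.85, and not every call held. The cause of these changes was not tested. With the replicate block 9 genes were called between b-gal- and b-gal+ cells and 3 between b-gal- and EpCAM-positive cells. No label says what the replicate numbers share; the deviations of same-numbered libraries correlated across genes at 0.177 to 0.494. Without TMM, by library size alone, the median of all genes shifted to 1.08 (log2) for b-gal- against hepatocytes, from 0.17; no direction of the 10 genes changed. With 2 libraries per group, leaving out 1 assumes that the lone library varies like the others.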

Other observations

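Some surface and ligand genes outside the 10 genes and the pathway lists were read in the same libraries. Itga9, an integrin chain listed as a lymphatic marker, stood at 806.8 and 780.3 CPM in the b-gal- libraries against 724.6 and 718.5 CPM in the b-gal+ libraries (limma log2 difference 0.14, adjusted p = 0.779), and at 314.5 and 256.6 CPM in EpCAM-positive and 28.06 and 49.41 CPM in hepatocyte libraries. Clec1b, the podoplanin receptor, went the other way from the VEGF receptors, with 126.7 and 157.6 CPM in the b-gal- libraries against 323.8 and 349.6 CPM in the b-gal+ libraries (log2 difference -1.25, adjusted p = 0.00272). Wnt2, a ligand made by sinusoidal and central vein endothelium, averaged 184 ± 101 CPM in b-gal- cells against 19.5 ± 3.27 CPM in b-gal+ cells (log2 difference 3.11, adjusted p = 0.0141), and Efnb2, an arterial ephrin, 195 ± 18.3 and 26.5 ± 10.7 CPM (2.91, adjusted p = 0.00253). Itga9 and Clec1b were singled out after their values were seen.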
